A study of Mus musculus with 12 samples.

Results

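RNA of the p53 pathway was followed in pre-B cells of the mouse, with p53 itself (Trp53) and its established direct targets Mdm2, Ccng1, Zmat3, Phlda3, Sesn2, Aen, Eda2r, Trp53inp1 and Ddb2 taken by gene symbol. Of these 10 genes, 9 were among the 12151 genes of the expression table, and Eda2r, a receptor of the tumour necrosis factor receptor family, was not. Cells were grown from bone marrow of mice aged 6 to 12 weeks and transformed with BCR-ABL1, the fusion kinase of a form of B cell acute lymphoblastic leukaemia (B-ALL). All of them carried Ctnnb1Ex3fl/+, in which exon 3 of a single copy of the β-catenin gene can be cut out by Cre, which leaves a β-catenin protein that escapes degradation. Before that, Cas9 ribonucleoproteins with nontargeting guides (sgNTC, here WT-labelled) or with guides against Ikzf1 and Ikzf3 (here KO-labelled) had been used, and lines were raised from single cells. The lines then received ERT2, the tamoxifen-binding domain without Cre, or Cre-ERT2, and GFP+ cells were sorted. This gave 4 groups of 3 libraries each, ERT2 WT and ERT2 KO without Cre and Cre-ERT2 WT and Cre-ERT2 KO with it. The protocol gives day 1 after 4-hydroxytamoxifen (4-OHT), in a sentence about chromatin experiments.

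p53 is a transcription factor that is kept scarce by the ubiquitin ligase Mdm2, itself a p53 target, and by the related Mdm4. DNA damage kinases, or the p19ARF product of Cdkn2a that oncogenic signals such as Myc and BCR-ABL1 can induce, release p53 from Mdm2, and p53 then raises genes of cell cycle arrest, cell death, repair and metabolism. In transformed pre-B cells the ARF-Mdm2-p53 route is known as a barrier to leukaemia. Most control of p53 acts on the protein, which RNA does not show.

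The design limits what each contrast compares. Cre activity and the excised exon cannot be told apart, since ERT2 libraries hold no Cre, and the editing of Ikzf1 and Ikzf3 and differences between single-cell-derived lines cannot be told apart either, since the libraries are not assigned to lines. Nothing in the labels says that the replicates were separate cultures, so the P values measure the spread between these samples only. In bulk RNA, fewer cells of a type and less RNA per cell cannot be told apart.

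Values are the authors' normalized log2 values, with library medians of 9.06 to 9.11. As the table holds no read counts, the depth of the libraries is unknown. Ikzf1 RNA was higher in KO-labelled libraries (14.56 to 14.76 against 13.66 to 13.75) and Ikzf3 RNA was lower (10.97 to 11.34 against 11.59 to 11.93). An edit that shifts the reading frame need not lower RNA, so these values do not check the labels. All 10 pre-B cell markers of a fixed list were in the table, each at 11.31 or above in every library, whereas 0 of 5 T cell and 0 of 4 erythroid markers were. Among 6 myeloid markers the table held Lyz2 and Itgam, whose unlogged values summed to 189 to 196 in WT-labelled and to 350 to 433 in KO-labelled libraries. That sum followed Lyz2 (+0.99 in ERT2 and +1.23 in Cre-ERT2 libraries, KO-labelled minus WT-labelled), while Itgam was lower (-0.15 and -0.18). The part of this rise in the KO results given here was not tested.

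p53 binds DNA at a pair of copies of a 10-base half-site, made of 3 purines, a C, 2 bases that are A or T, a G and 3 pyrimidines. It was searched, by this pattern on both strands, in RefSeq promoter windows (GRCm38.p6, 250 bases before to 50 after a transcript start). Windows were found for 6 members, of which Trp53, Mdm2, Ccng1 and Aen held the half-site once each, and Phlda3 and Sesn2 did not hold it in these letters. Zmat3, Trp53inp1 and Ddb2 were not in the promoter table. The 4 matches are shown 5′ to 3′ on the strand of the gene with 10 bases on each side, the half-site in capitals, because p53 acts on its targets through sequences of this kind.
Trp53, chr11:69580274-69580303, plus strand: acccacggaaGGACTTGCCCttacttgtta
Mdm2, chr10:117710925-117710954, minus strand: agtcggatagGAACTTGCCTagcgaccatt
Ccng1, chr11:40755452-40755481, minus strand: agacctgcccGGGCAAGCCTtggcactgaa
Aen, chr7:78895927-78895956, plus strand: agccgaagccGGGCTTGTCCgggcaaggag
The half-site began at position -75 from the start of Trp53, in the 103 bases that part Trp53 from Wrap53 on the other strand, at -186 for Mdm2 and at -185 for Ccng1. In Aen it lay at position 10 after the first of 2 listed starts, in a 5′ untranslated exon of the GENCODE M21 annotation, and at -121 from the second. Counted by gene, as for the members, the half-site occurred in 9.55% of 27025 genes with a window. Counted by window, it occurred in 8.36% of all 32851 windows. A pair of them 0 to 13 bases apart, both exact matches, occurred in 0.0731%, with none in the windows of members. The count of pairs does not take in near matches. In the Ccng1 sequence, the 10 bases before the half-site depart from the pattern only at the first of the 2 A or T positions. A match to these patterns, exact or near, describes the letters only and was not tested as a binding site.

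Trp53 RNA (chr11:69580359-69591873) differed little between the groups, whose values nevertheless did not overlap. It stood at 12.23, 12.23 and 12.23 in ERT2 WT, at 12.20, 12.19 and 12.19 in Cre-ERT2 WT, at 12.13, 12.13 and 12.13 in ERT2 KO and at 12.09, 12.05 and 11.99 in Cre-ERT2 KO. The Cre-ERT2 KO libraries were the lowest and the most spread. The KO-labelled libraries were lower by a log2 difference of -0.10 ± 0.024 (SE; adjusted p = 0.00401) with ERT2 and of -0.15 ± 0.024 (adjusted p = 0.000166) with Cre-ERT2, that is, 6.54% and 9.87% lower in unlogged value. The first of these calls was lost after quantile normalization (-0.06, adjusted p = 0.0551). With Cre-ERT2 against ERT2, Trp53 was called in KO-labelled cells (-0.09 ± 0.024, adjusted p = 0.0361) and not in WT-labelled cells (-0.03 ± 0.024, adjusted p = 0.434). That single call was lost when any 1 of 9 libraries was left out, all but ERT2 WT replicate 3, Cre-ERT2 WT replicate 1 and Cre-ERT2 KO replicate 1 (range -0.11 to -0.06). It was also lost with only the 6 libraries compared (adjusted p = 0.143). The difference between both effects was not called (-0.05 ± 0.034, adjusted p = 0.491).

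Across the 12 libraries, the 5 genes whose values followed Trp53 most closely were Fam78a (Pearson r = 0.974), Atxn7l3 (0.973), Myo1c (0.970), Mcm3 (0.967) and Rfc3 (0.967). Mcm3 encodes a subunit of the replicative helicase and Rfc3 one of the clamp loader. Aen (0.927), Mdm2 (0.835), Ccng1 (0.824) and Trp53inp1 (0.651) ran in the same direction as Trp53, and Zmat3 (-0.62), Ddb2 (-0.63), Phlda3 (-0.54) and Sesn2 (-0.73) in the opposite one. These coefficients describe 12 points in 4 groups that share their libraries, and the split is that between WT-labelled and KO-labelled cells.

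**Figure D1:**
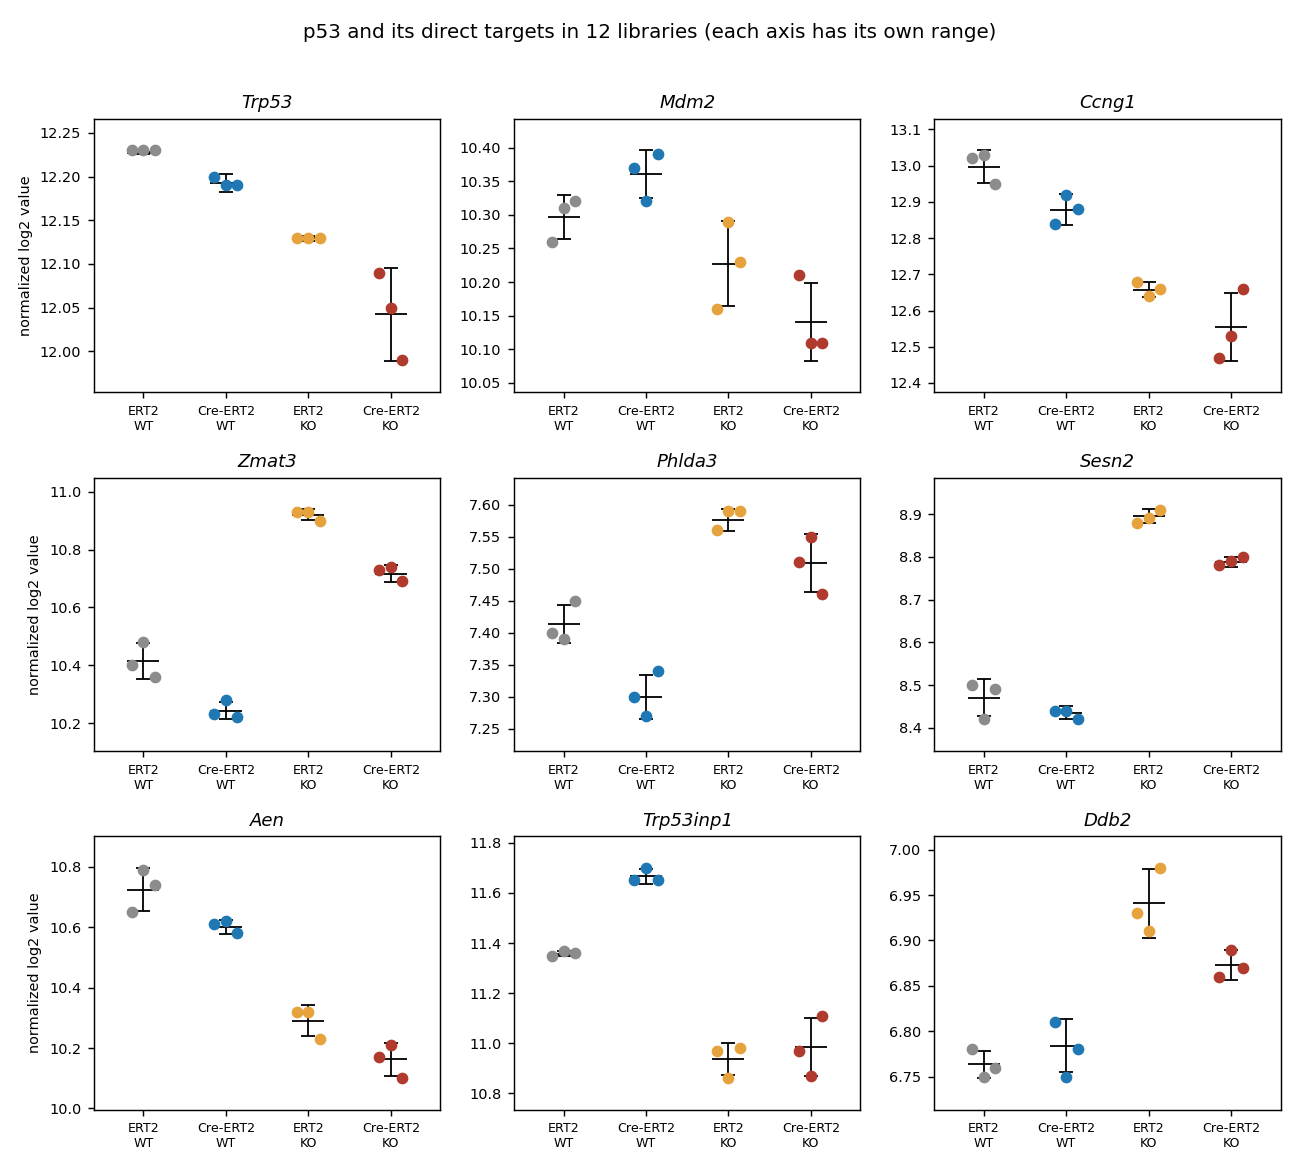
Normalized log2 values (y axis, a range of its own in each panel) of the 9 measured genes in the 4 groups (x axis). Points are the 3 libraries, and bars are the mean and SD. Trp53, Mdm2, Ccng1, Aen and Trp53inp1 had their highest means in WT-labelled groups and Zmat3, Phlda3, Sesn2 and Ddb2 in KO-labelled groups.

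The first question was how p53 and its targets differed between KO-labelled and WT-labelled cells without Cre. Here 8 of 9 members were called, 4 higher and 4 lower, and with Cre-ERT2 in both arms 9 of 9 were, 4 higher and 5 lower. These shares must be read against the table, in which 59.0% of genes were called with ERT2 (29.8% higher, 29.3% lower) and 58.9% with Cre-ERT2 (30.4% higher, 28.6% lower). With each library centred on its median, the called genes of the table split into 2866 higher and 4747 lower with ERT2, in place of 3616 and 3559, and into 2983 and 4789 with Cre-ERT2, in place of 3688 and 3473. The median absolute log2 difference over the members was 0.34 and 0.32, beside 0.10 and 0.11 over all genes. Their signed medians were -0.07 and -0.15, beside 0.0016 and 0.0016 over all genes, so the members did not move as a block but as a group that was lower and a group that was higher.

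Mdm2 and Ccng1 act in the feedback that restrains p53. Mdm2 (chr10:117688875-117710758) stood at 10.26, 10.31 and 10.32 in ERT2 WT, at 10.37, 10.32 and 10.39 in Cre-ERT2 WT, at 10.16, 10.29 and 10.23 in ERT2 KO and at 10.21, 10.11 and 10.11 in Cre-ERT2 KO. With ERT2 the groups overlapped and Mdm2 was not called (-0.07 ± 0.038, adjusted p = 0.134), although it was with median centring (-0.10, adjusted p = 0.0312) or without ERT2 KO replicate 2 (-0.10, adjusted p = 0.0452). With Cre-ERT2 they did not overlap, and Mdm2 was lower by -0.22 ± 0.038 (adjusted p = 0.000268), or 14.1%. Ccng1 (chr11:40748552-40755311), cyclin G1, which brings a phosphatase to Mdm2, had values of 13.02, 13.03 and 12.95 in ERT2 WT, 12.84, 12.92 and 12.88 in Cre-ERT2 WT, 12.68, 12.64 and 12.66 in ERT2 KO and 12.47, 12.53 and 12.66 in Cre-ERT2 KO. Every KO-labelled library lay below every WT-labelled one, with differences of -0.34 ± 0.041 (adjusted p = 1.32e-05) and -0.32 ± 0.041 (adjusted p = 2.06e-05).

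A pair of pro-apoptotic targets fell further. Trp53inp1 (chr4:11156431-11174379) encodes a nuclear stress protein that assists p53 and acts in autophagy. It stood at 11.35, 11.37 and 11.36 in ERT2 WT, 11.65, 11.70 and 11.65 in Cre-ERT2 WT, 10.97, 10.86 and 10.98 in ERT2 KO and 10.97, 10.87 and 11.11 in Cre-ERT2 KO. The KO-labelled libraries differed by -0.42 ± 0.049 (adjusted p = 8.79e-06) with ERT2 and by -0.68 ± 0.049 (adjusted p = 9e-08) with Cre-ERT2, which is 25.3% and 37.7% lower in unlogged value. Aen (chr7:78895854-78911209), a nuclease of apoptotic DNA cleavage, had values of 10.65, 10.79 and 10.74 in ERT2 WT, 10.61, 10.62 and 10.58 in Cre-ERT2 WT, 10.32, 10.32 and 10.23 in ERT2 KO and 10.17, 10.21 and 10.10 in Cre-ERT2 KO. Its difference was -0.43 ± 0.04 (adjusted p = 1.04e-06) with ERT2 and -0.44 ± 0.04 (adjusted p = 9.19e-07) with Cre-ERT2, a fall of 26.0% and 26.2%, and the difference between them was -0.0043 (95% interval -0.13 to 0.12).

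The higher group held Zmat3, Sesn2, Phlda3 and Ddb2, with roles in RNA processing, growth control and repair. A split of the members by function was not tested. In the wider list given below, called genes of both roles went both ways with ERT2. Of cell death targets 3 were higher and 1 lower, and of repair and nucleotide genes 3 were higher and 2 lower. Zmat3 (chr3:32334792-32366014), a zinc-finger protein that binds RNA and alters splicing, had the largest rise among the members. Its values were 10.40, 10.48 and 10.36 in ERT2 WT, 10.23, 10.28 and 10.22 in Cre-ERT2 WT, 10.93, 10.93 and 10.90 in ERT2 KO and 10.73, 10.74 and 10.69 in Cre-ERT2 KO. KO-labelled libraries exceeded WT-labelled ones by 0.51 ± 0.032 (adjusted p = 2.64e-08) with ERT2, or 42.1%, and by 0.47 ± 0.032 (adjusted p = 4.7e-08) with Cre-ERT2. Sesn2 (chr4:132492032-132510501), sestrin 2, which restrains mTORC1 and is also induced by nutrient stress through Atf4, stood at 8.50, 8.42 and 8.49 in ERT2 WT, 8.44, 8.44 and 8.42 in Cre-ERT2 WT, 8.88, 8.89 and 8.91 in ERT2 KO and 8.78, 8.79 and 8.80 in Cre-ERT2 KO. No library of one label reached those of the other, and the differences were 0.43 ± 0.027 (adjusted p = 2.95e-08) and 0.35 ± 0.027 (adjusted p = 1.7e-07).

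Phlda3 and Ddb2 had lower values and smaller differences. Phlda3 (chr1:135766119-135769136), whose product competes with Akt for membrane lipids, stood at 7.40, 7.39 and 7.45 in ERT2 WT, 7.30, 7.27 and 7.34 in Cre-ERT2 WT, 7.56, 7.59 and 7.59 in ERT2 KO and 7.51, 7.55 and 7.46 in Cre-ERT2 KO. It was higher in KO-labelled libraries by 0.16 ± 0.031 (adjusted p = 0.000561) and 0.21 ± 0.031 (adjusted p = 6.88e-05), without overlap. Ddb2 (chr2:91211572-91236982), a sensor of ultraviolet damage in nucleotide excision repair, stood at 6.78, 6.75 and 6.76 in ERT2 WT, 6.81, 6.75 and 6.78 in Cre-ERT2 WT, 6.93, 6.91 and 6.98 in ERT2 KO and 6.86, 6.89 and 6.87 in Cre-ERT2 KO. The groups again did not overlap, with differences of 0.18 ± 0.026 (adjusted p = 7.47e-05) and 0.09 ± 0.026 (adjusted p = 0.0108), of which the second turned to -0.02 after quantile normalization (adjusted p = 0.545) and was not called with median centring (0.06, adjusted p = 0.0736). Over genes with means of 6 to 8 the replicates spread less (median SD 0.041) than at 8 to 10 (0.046), and at 2 to 4 least (0.013). The authors' transformation, which could compress differences of genes with low values, is not stated.

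**Figure D2:**
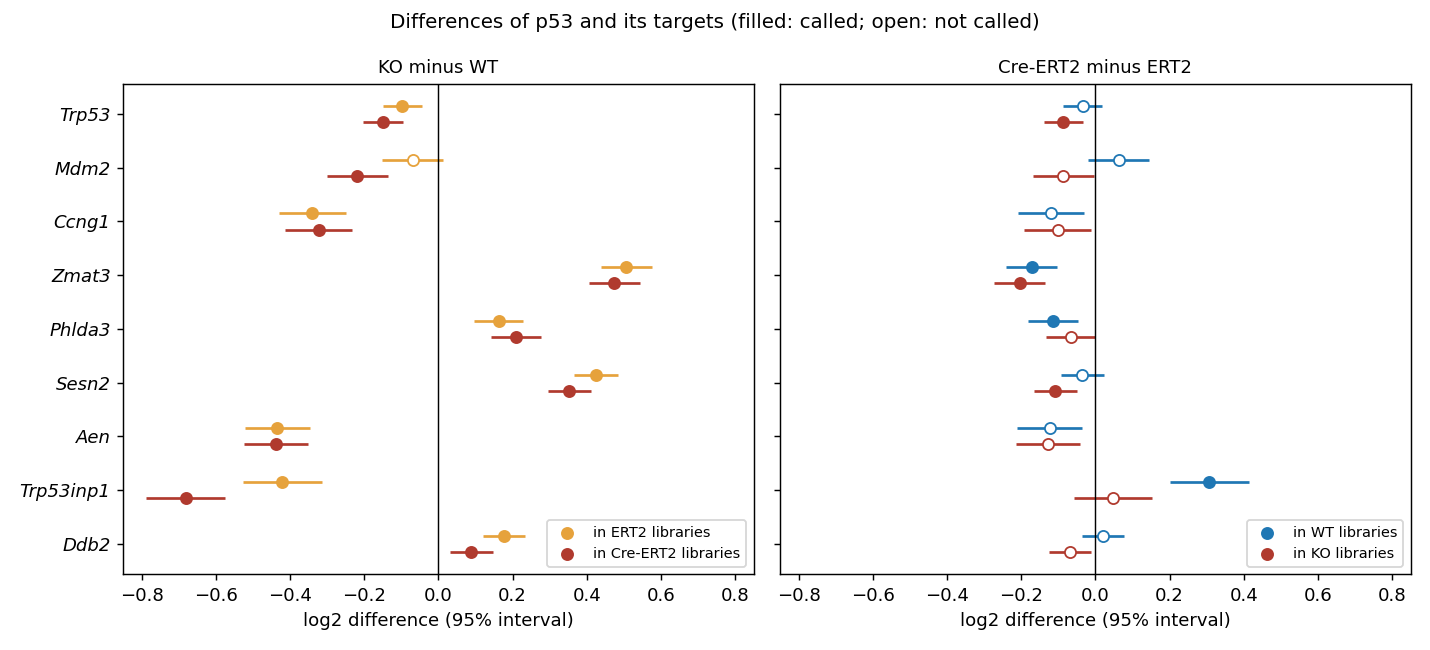
Log2 differences (x axis) of the 9 genes (rows), KO-labelled minus WT-labelled on the left and Cre-ERT2 minus ERT2 on the right. Points are limma estimates, lines are 95% intervals, and filled points were called. On the left, 4 genes lie above 0 and 5 below with either vector, and on the right most points lie within 0.2 of 0, with Trp53inp1 in WT-labelled cells at 0.31.

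The 4 members with a half-site in the promoter windows shown above were all lower in KO-labelled cells with Cre-ERT2, and both members whose window lacked it were higher. This split of 6 genes was noticed after their values were seen and was not tested. Among 31 other p53 targets of a list of pathway genes that had a window, it did not recur. With Cre-ERT2, the half-site stood in 4 of 8 that were called higher and in 3 of 13 that were called lower, and with ERT2 in 3 of 9 and in 4 of 12. Over all 8572 genes with a window it stood in 7.78% of those called higher and 8.34% of those called lower with Cre-ERT2.

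The second question was how the same genes differed between Cre-ERT2 and ERT2 libraries. Here and below, β-catenin effects, β-catenin differences and changes with β-catenin all mean Cre-ERT2 against ERT2. In that contrast Cre activity and the excised exon cannot be told apart. In WT-labelled cells 3 of 9 members were called, 1 higher and 2 lower, in a table with 11.9% of genes called (5.93% higher, 5.95% lower). In KO-labelled cells 3 of 9 were called, all lower, beside 12.6% of the table (7.27% higher, 5.33% lower), and without ERT2 KO replicate 2 only 1 of them was. The members' median log2 difference was -0.04 in WT-labelled and -0.09 in KO-labelled cells, with 2.18e-05 and -0.00041 over all genes, and their median absolute difference was 0.11 and 0.09, beside 0.036 and 0.037. Only Zmat3 was called in both backgrounds and in all 20 alternatives run, at -0.17 ± 0.032 (adjusted p = 0.00356) in WT-labelled and -0.20 ± 0.032 (adjusted p = 0.000957) in KO-labelled cells. Its direction under Cre-ERT2 was thus opposite to that under the KO label, and the 4 groups did not overlap.

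Trp53inp1 had the largest β-catenin difference of the members, in WT-labelled cells. All 3 Cre-ERT2 WT libraries (11.65 to 11.70) exceeded all 3 ERT2 WT libraries (11.35 to 11.37), a rise of 0.31 ± 0.049 (adjusted p = 0.0012), or 23.8%. In KO-labelled cells the libraries overlapped and the difference was 0.05 ± 0.049 (adjusted p = 0.605). The difference between both effects was -0.26 ± 0.069 (95% interval -0.41 to -0.11), just short of the threshold (adjusted p = 0.0555). It passed on unlogged values (-556 units, adjusted p = 0.0165) and in only 3 of 19 other alternatives. These were over genes with a mean above 8 only (adjusted p = 0.0488), without ERT2 KO replicate 2 (-0.30, adjusted p = 0.0435) and without Cre-ERT2 KO replicate 3 (-0.32, adjusted p = 0.00493). The last is the library with the highest Trp53inp1 value among KO-labelled ones. No member was called by limma in this interaction, where 4.53% of the table was (2.71% higher, 1.82% lower). At an unadjusted p under 0.05 there were 3 of 9, beside 2101 genes or 17.3% of the table, namely Mdm2, Trp53inp1 and Ddb2, all with the more negative β-catenin effect in KO-labelled cells.

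Other β-catenin differences of the members were small. Phlda3 was lower in WT-labelled cells (-0.11 ± 0.031, adjusted p = 0.0299), a call that was lost without ERT2 WT replicate 1 (adjusted p = 0.0611) or 3 (0.103) or without Cre-ERT2 WT replicate 1 (0.0813) or 2 (0.113), and with only the 6 libraries compared (0.0545). Sesn2 was lower in KO-labelled cells (-0.11 ± 0.027, adjusted p = 0.0208), and that call was lost without ERT2 KO replicate 2 (0.0598) or 3 (0.0729) or Cre-ERT2 KO replicate 1 (0.0626). Aen missed the threshold narrowly in both, at -0.12 ± 0.04 (adjusted p = 0.0685) and -0.13 ± 0.04 (adjusted p = 0.058), and in each background its groups did not overlap. In WT-labelled cells it was called without ERT2 WT replicate 1 (-0.16, adjusted p = 0.0248). In KO-labelled cells it was called with quantile normalization (adjusted p = 0.0452), with median centring (0.0408), over genes with a mean above 8 (0.0467), and without ERT2 WT replicate 1 (0.0365) or 2 (0.0479), ERT2 KO replicate 3 (0.0397) or Cre-ERT2 KO replicate 2 (0.0498). For Ccng1 the values were -0.12 ± 0.041 (adjusted p = 0.0866) and -0.10 ± 0.041 (adjusted p = 0.143), the first called with quantile normalization (0.0358) or without Cre-ERT2 KO replicate 1 (0.0498) or 3 (0.0201), and the second without Cre-ERT2 KO replicate 3 (-0.15, adjusted p = 0.011). Mdm2, at 0.06 ± 0.038 in WT-labelled and -0.09 ± 0.038 in KO-labelled cells, and Ddb2, at 0.02 ± 0.026 and -0.07 ± 0.026, were not called in either. For any single gene the exact 2-sided permutation test of 3 against 3 libraries cannot go below p = 0.1, which is the value every pair of groups without overlap gave.

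The wider pathway was counted over a list of 71 further genes, 64 of them in the table. In KO-labelled cells 48 of 64 were called with ERT2, 24 higher and 24 lower, and 47 with Cre-ERT2, 22 higher and 25 lower. The medians were -0.01 and -0.0031. The β-catenin contrast called 12 of 64 in WT-labelled cells, 3 higher and 9 lower, and 15 in KO-labelled cells, 7 higher and 8 lower. Most of these belonged to 37 p53 targets, of which 10 (2 higher, 8 lower) and 12 (4 higher, 8 lower) were called, while of 15 genes that control p53 1 was called in each background and of 12 genes lowered through p21 and the DREAM complex 1 and 2, all higher. The list thus had 75.0% and 73.4% of its genes called in the KO contrasts and 18.8% and 23.4% in the β-catenin contrasts, beside the shares of the table given above. In the β-catenin contrasts, the 37 targets alone had 27.0% and 32.4% called and the 15 controlling genes 6.67% in each. For the 12 genes lowered through p21 and DREAM these shares were 8.33% and 16.7%. The 12 calls in WT-labelled cells became 7, 6 and 7 without ERT2 WT replicate 1, ERT2 WT replicate 2 and Cre-ERT2 WT replicate 2, and the 15 in KO-labelled cells became 7 without ERT2 KO replicate 2. The interaction was called for 3 of 64, Cdkn2a, Gadd45a and Btg2, which is 4.69% beside 4.53% of the table.

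**Figure D3:**
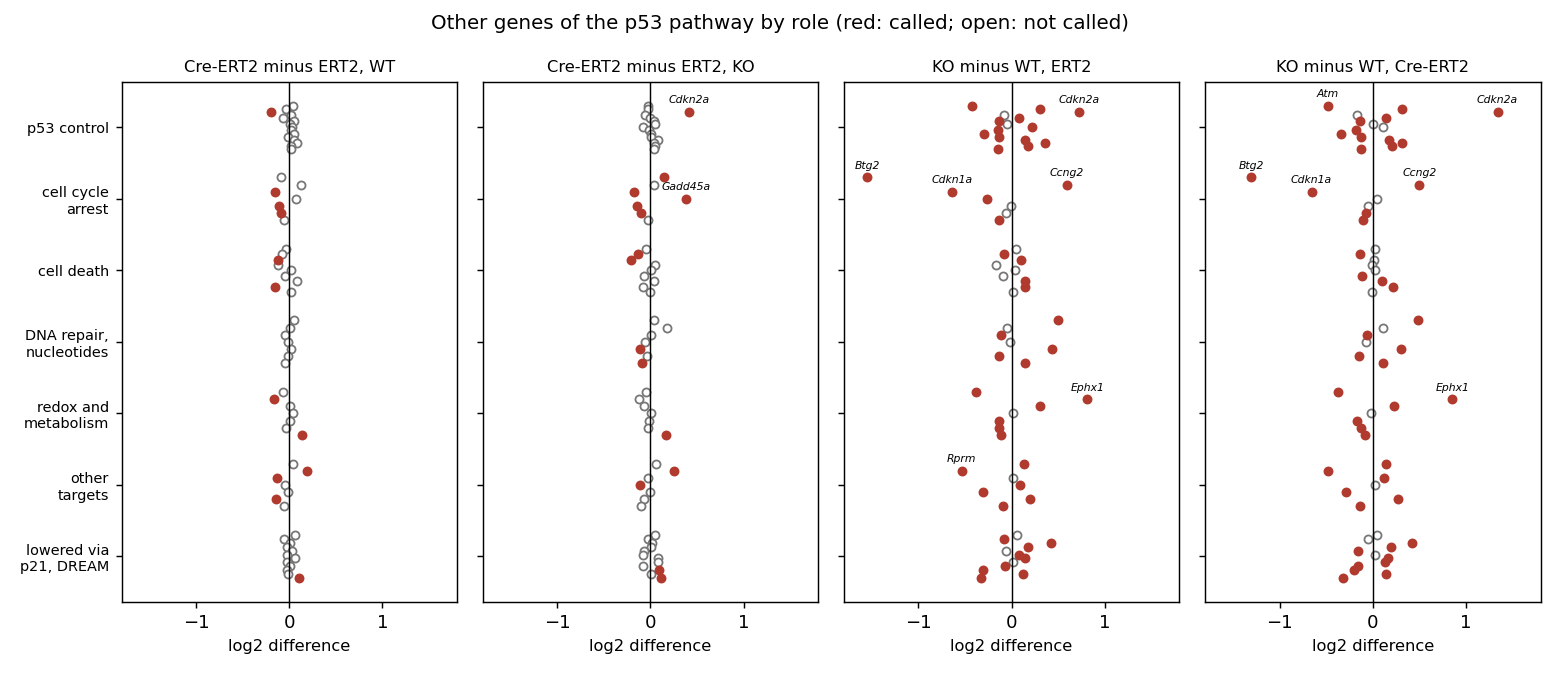
Log2 differences (x axis) of the 64 pathway genes, grouped by role (y axis), in 4 contrasts. Each point is a gene, red if called and open if not. In both KO contrasts called genes lie on both sides of 0 in every role, from -1.55 for Btg2 to 1.34 for Cdkn2a, and in both β-catenin contrasts most points lie within 0.2 of 0.

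Among the genes that control p53, Cdkn2a stood out. Its gene-level value cannot separate p16INK4a, an inhibitor of cyclin D kinases, from p19ARF, the inhibitor of Mdm2. It stood at 8.28, 8.22 and 8.37 in ERT2 WT, 8.12, 8.06 and 8.10 in Cre-ERT2 WT, 9.03, 9.02 and 8.99 in ERT2 KO and 9.45, 9.50 and 9.34 in Cre-ERT2 KO. The KO-labelled libraries were higher by 0.73 ± 0.045 (adjusted p = 2.35e-08) with ERT2 and by 1.34 ± 0.045 (adjusted p = 5.41e-11) with Cre-ERT2. With Cre-ERT2 it fell in WT-labelled cells (-0.20 ± 0.045, adjusted p = 0.0126) and rose in KO-labelled ones (0.42 ± 0.045, adjusted p = 5.13e-05), and the difference between both effects was itself called (0.61 ± 0.064, adjusted p = 0.000105). The fall in WT-labelled cells was not called without ERT2 WT replicate 3 (adjusted p = 0.0501) or Cre-ERT2 WT replicate 2 (adjusted p = 0.0541). The means of Trp53 and Mdm2, in contrast to that of Cdkn2a, were lowest in Cre-ERT2 KO. For Mdm2 these libraries overlapped those of ERT2 KO, and limma did not call the difference (adjusted p = 0.174). The call of Trp53 between these groups was lost when any 1 of 9 libraries was left out.

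Mdm4, the partner of Mdm2 that blocks p53 activity, was higher in KO-labelled cells with ERT2 (0.21 ± 0.043, adjusted p = 0.000928) and at 0.11 ± 0.043 with Cre-ERT2 (adjusted p = 0.0525), which was called in 6 of 20 alternatives, such as without Cre-ERT2 WT replicate 3 (0.14, adjusted p = 0.0216). Its β-catenin differences were 0.03 ± 0.043 and -0.08 ± 0.043, neither of them called. Atm, the kinase that reports DNA double-strand breaks to p53, was lower with ERT2 (-0.42 ± 0.085, adjusted p = 0.000909) and with Cre-ERT2 (-0.48 ± 0.085, adjusted p = 0.000303). In all, 7 of the 15 controlling genes were higher and 6 lower with ERT2, and 6 and 6 with Cre-ERT2. Their called shares were 86.7% and 80%, beside 59.0% and 58.9% of the table.

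Between the labels, Btg2 and Cdkn1a, targets that act in cell cycle arrest, had the largest falls of the list. Btg2, an antiproliferative gene of B cell development, stood at 10.44, 10.48 and 10.48 in ERT2 WT, 10.43, 10.35 and 10.34 in Cre-ERT2 WT, 8.88, 8.88 and 8.99 in ERT2 KO and 9.14, 9.07 and 8.98 in Cre-ERT2 KO. It was lower in KO-labelled cells by -1.55 ± 0.044 (adjusted p = 1.08e-11) and -1.31 ± 0.044 (adjusted p = 5.38e-11). Cdkn1a, the gene of the cyclin-dependent kinase inhibitor p21, had values of 10.75, 10.69 and 10.66 in ERT2 WT, 10.57, 10.55 and 10.53 in Cre-ERT2 WT, 9.99, 10.08 and 10.12 in ERT2 KO and 9.89, 9.89 and 9.90 in Cre-ERT2 KO. In this order of the groups each lay below the one before it, without overlap. The KO differences were -0.64 ± 0.033 (adjusted p = 3.63e-09) and -0.66 ± 0.033 (adjusted p = 2.62e-09), the β-catenin differences -0.15 ± 0.033 (adjusted p = 0.00855) and -0.17 ± 0.033 (adjusted p = 0.004), and these calls held in all 20 alternatives run.

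Ccng2, an atypical cyclin that FoxO factors also induce, moved against Ccng1 in KO-labelled cells (0.59 ± 0.039, adjusted p = 4.01e-08, and 0.50 ± 0.039, adjusted p = 1.89e-07). Gadd45a, a stress sensor, stood at 7.32, 7.29 and 7.43 in ERT2 WT, 7.41, 7.41 and 7.45 in Cre-ERT2 WT, 7.07, 7.09 and 7.11 in ERT2 KO and 7.47, 7.47 and 7.48 in Cre-ERT2 KO. The ERT2 KO libraries were the lowest, and there it rose with Cre-ERT2 by 0.38 ± 0.034 (adjusted p = 8.87e-06). In WT-labelled cells its difference was 0.08 ± 0.034 (adjusted p = 0.187), which was called without ERT2 WT replicate 3 (0.12, adjusted p = 0.0181). Gtse1, which holds p53 in the cytoplasm, was lower with Cre-ERT2 in WT-labelled (-0.10 ± 0.028, adjusted p = 0.0317) and KO-labelled cells (-0.14 ± 0.028, adjusted p = 0.00536), and the interaction was not called (-0.04 ± 0.04, adjusted p = 0.697). The call in WT-labelled cells was lost without ERT2 WT replicate 1 (0.131) or 2 (0.0853) or Cre-ERT2 WT replicate 2 (0.0943) or 3 (0.126), and with only the 6 libraries compared (0.104). Of 7 arrest genes that were measured, 1 was higher and 4 lower in each KO contrast, and 0 were higher and 3 lower in the WT-labelled and 2 higher and 3 lower in the KO-labelled β-catenin contrast. The called shares were 71.4% in each KO contrast, beside 59.0% and 58.9% of the table. In the β-catenin contrasts they were 42.9% and 71.4%, beside 11.9% and 12.6%.

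The death effectors had a median absolute difference between the labels of 0.09 with ERT2 and 0.03 with Cre-ERT2. Over all genes it was 0.10 and 0.11. With ERT2, 4 of 9 cell death genes were called in KO-labelled cells, 3 higher and 1 lower, and with Cre-ERT2 4 of 9, 2 higher and 2 lower. This share of 44.4% lay below the 59.0% and 58.9% of the table. The 9 genes include Fas (mean 3.47 in ERT2 WT and 3.51 in ERT2 KO) and Tnfrsf10b (3.91 and 3.93). Neither was called between the labels. At means of 2 to 4, where differences could be compressed, replicates spread least (median SD 0.013). How far these low values account for the smaller share and medians was not tested. Bax, the pore former of mitochondria, was lower by -0.09 ± 0.034 (adjusted p = 0.0426) with ERT2, where the groups overlapped, and by -0.14 ± 0.034 (adjusted p = 0.00359) with Cre-ERT2. The first of these calls held in 9 of 20 alternatives and was lost, among others, without ERT2 WT replicate 3 (-0.06, adjusted p = 0.164) or ERT2 KO replicate 1 (-0.05, adjusted p = 0.19). Pmaip1 (Noxa) was higher by 0.14 ± 0.03 (adjusted p = 0.00137) and 0.10 ± 0.03 (adjusted p = 0.00972), the second of which was not called after quantile normalization (adjusted p = 0.0557) or median centring (adjusted p = 0.0599). Bbc3 (Puma) was higher by 0.10 ± 0.028 (adjusted p = 0.00606) with ERT2, which was not called after quantile normalization (0.03, adjusted p = 0.333), and stood at 0.01 ± 0.028 with Cre-ERT2 (adjusted p = 0.691), where quantile normalization gave -0.08 (adjusted p = 0.0257).

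Cre-ERT2 went with lower Bbc3 in WT-labelled (-0.12 ± 0.028, adjusted p = 0.0136) and KO-labelled cells (-0.21 ± 0.028, adjusted p = 0.000259). The first was not called without ERT2 WT replicate 3 (adjusted p = 0.0541) or Cre-ERT2 WT replicate 2 (adjusted p = 0.0611). Bax was lower in KO-labelled cells (-0.13 ± 0.034, adjusted p = 0.0221) and at -0.08 ± 0.034 in WT-labelled cells (adjusted p = 0.152). Its call was lost without ERT2 KO replicate 2 (0.0892) or 3 (0.0884) or Cre-ERT2 KO replicate 2 (0.0537) or 3 (0.0662), and with only the 6 libraries compared (0.0735). Pmaip1 was not called in either, at 0.08 ± 0.03 and 0.04 ± 0.03. Siva1, a pro-apoptotic adaptor of the CD27 receptor, was lower in WT-labelled cells (-0.16 ± 0.036, adjusted p = 0.0119), a call lost without ERT2 WT replicate 2 (0.0546) or Cre-ERT2 WT replicate 3 (0.057), and stood at -0.08 ± 0.036 in KO-labelled cells (adjusted p = 0.192). In this role 2 of 9 genes were called in each background, all lower, which is 22.2% beside 11.9% and 12.6% of the table.

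**Figure D4:**
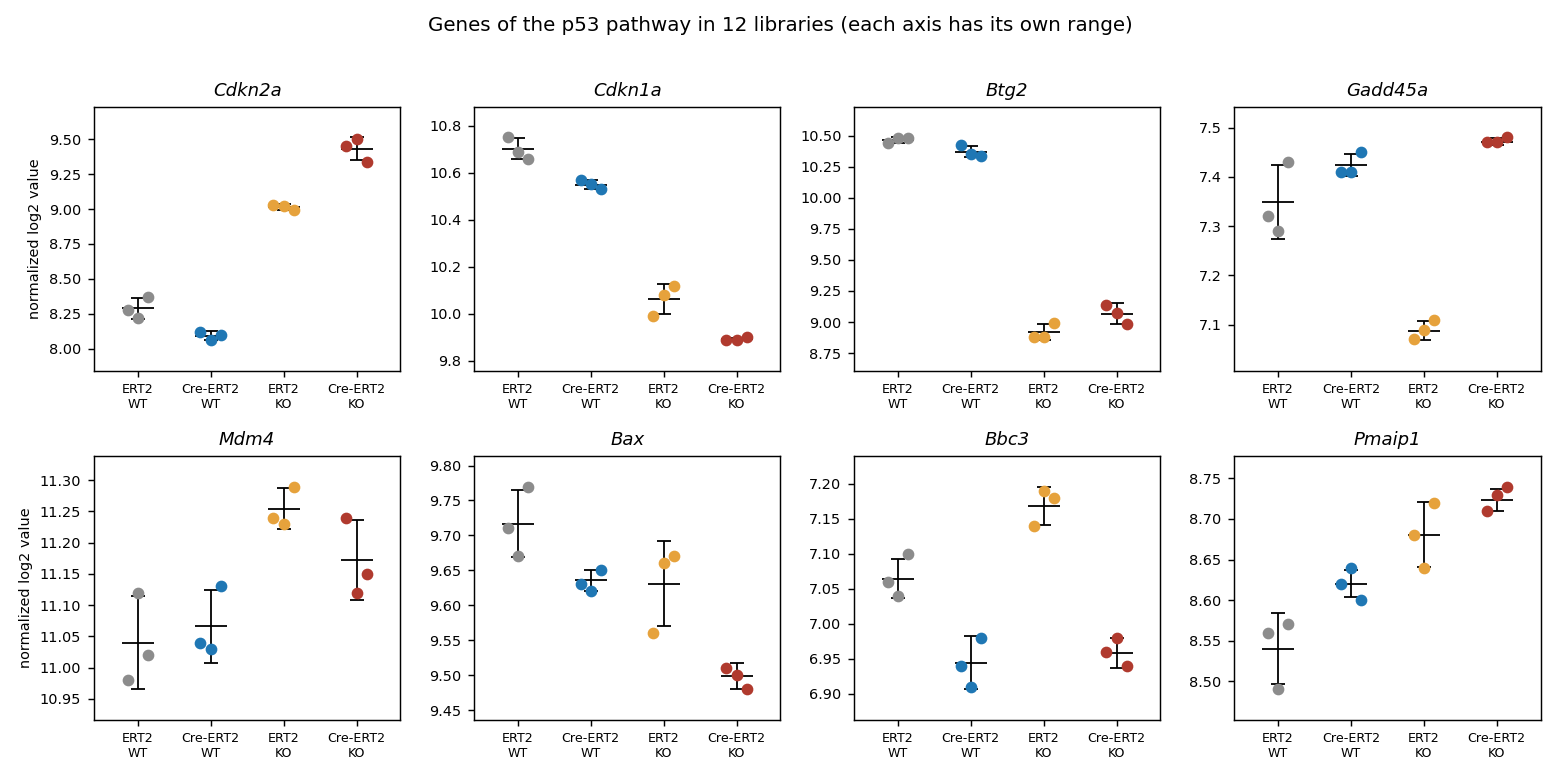
Normalized log2 values (y axis, a range of its own in each panel) of 8 pathway genes in the 4 groups (x axis). Points are the 3 libraries, and bars are the mean and SD. Cdkn2a was highest and Cdkn1a lowest in Cre-ERT2 KO, and Btg2 was near 10.4 in WT-labelled and near 9 in KO-labelled libraries.

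Targets of metabolism and repair held rises as well as falls. Ephx1, microsomal epoxide hydrolase, was higher in KO-labelled cells by 0.81 ± 0.039 (adjusted p = 1.79e-09) and 0.85 ± 0.039 (adjusted p = 1.06e-09), and lower with β-catenin in WT-labelled cells (-0.16 ± 0.039, adjusted p = 0.0178). In KO-labelled cells that difference was -0.12 ± 0.039 (adjusted p = 0.0715), which was called without Cre-ERT2 KO replicate 3 (-0.14, adjusted p = 0.0466). Sesn1, the relative of Sesn2, was higher with β-catenin in WT-labelled (0.14 ± 0.034, adjusted p = 0.0172) and KO-labelled cells (0.17 ± 0.034, adjusted p = 0.00537), and the second call held in all 20 alternatives run. Of 7 redox and metabolism genes 2 were higher and 4 lower in each KO contrast, and of 7 repair and nucleotide genes 3 were higher and 2 lower. These roles had 85.7% and 71.4% called, beside 59.0% of the table with ERT2 and 58.9% with Cre-ERT2. Rprm, reprimo, a mediator of arrest in G2, was lower in KO-labelled cells with ERT2 (-0.53 ± 0.03, adjusted p = 1.02e-08) and Cre-ERT2 (-0.48 ± 0.03, adjusted p = 2.77e-08) and rose with β-catenin in WT-labelled (0.19 ± 0.03, adjusted p = 0.00115) and KO-labelled cells (0.25 ± 0.03, adjusted p = 0.000145). Top2a, topoisomerase II of dividing cells and one of the genes that p21 lowers, was higher with β-catenin in WT-labelled (0.11 ± 0.028, adjusted p = 0.0237) and KO-labelled cells (0.11 ± 0.028, adjusted p = 0.0234). Between the labels Top2a was lower in KO-labelled cells, by -0.32 ± 0.028 with ERT2 (adjusted p = 6.19e-07) and with Cre-ERT2 (adjusted p = 5.84e-07). Of the 12 genes lowered through p21 and DREAM, 9 were called in each KO contrast, 5 higher and 4 lower. This is 75%, beside 59.0% and 58.9% of the table. The β-catenin call of Top2a in KO-labelled cells was lost without ERT2 KO replicate 1 (0.0731), 2 (0.0591) or 3 (0.0654) or Cre-ERT2 KO replicate 1 (0.0665) or 3 (0.0783), with quantile normalization (0.102) and with only the 6 libraries compared (0.0591). These WT-labelled β-catenin calls of Ephx1, Sesn1 and Top2a were each lost when some single libraries were left out. For Ephx1 these were ERT2 WT replicates 1 (adjusted p = 0.0749) and 2 (0.0603) and Cre-ERT2 WT replicates 2 (0.0548) and 3 (0.0632). For Sesn1 they were ERT2 WT replicates 1 (0.077) and 2 (0.0655) and Cre-ERT2 WT replicate 1 (0.0725), and for Top2a ERT2 WT replicates 1 (0.0987) and 2 (0.0895) and Cre-ERT2 WT replicates 1 (0.0854) and 3 (0.0674). With only the 6 libraries compared, Sesn1 (0.0587) and Top2a (0.0531) also lost the WT-labelled call, as Top2a did with quantile normalization (0.0897).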

How the data were processed

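Polyadenylated RNA of 12 libraries was made with a stranded kit. The authors quantified reads with Salmon 1.4.0, aligned them with STAR 2.7.6 and used DESeq2 1.30.1, per the submitters' processing notes, on mm10 (GRCm38). The deposited values are log2 values, which the authors had normalized between libraries, and come without counts, so depth is unknown. Their transformation is not given in the sources used here. All per-sample columns were used (0 left out), and each was mapped by its name to 1 sample title. As the values are log2, limma was used.

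Means of the 4 groups were estimated for 12151 genes by limma 3.58.1 (lmFit, eBayes with trend; R 4.3.3), using every library. P values were adjusted over all genes (Benjamini-Hochberg) for each of 5 contrasts, KO-labelled minus WT-labelled with ERT2 and with Cre-ERT2, Cre-ERT2 minus ERT2 in WT-labelled and in KO-labelled cells, and the difference of the latter. Genes with an adjusted p under 0.05 are called. An exact 2-sided permutation test was run beside it for each member. The script was tested on simulated data. Errors of differences are moderated SE.

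Named are all members, Cdkn1a, Cdkn2a, Mdm4, Bax, Bbc3 and Pmaip1 in every contrast, the called genes with the 3 largest rises or falls of the pathway list in a contrast, and the 5 genes most correlated with Trp53. For 8 of these genes the value in the matching contrast was added after values were seen. The members and lists were chosen with earlier results of these data known, and the lists were written from general knowledge. Gene positions are from GENCODE M21 (GRCm38, while the authors used GENCODE M24) and promoters from RefSeq (GRCm38.p6). Alternatives were a pseudocount of 1 on unlogged values, genes with a mean above 8, quantile normalization, median centring, eBayes without trend, the 6 libraries compared, a replicate block, an adjusted p under 0.01, unlogged values for the interaction, and each library left out.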

Additional observations from a re-analysis of the deposited data

Results flagged for a closer look

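The response to Cre-ERT2 differed between KO-labelled and WT-labelled cells, by limma's interaction term, for 3 of 64 genes of the p53 pathway list (4.69%, beside 4.53% of the table) and for no direct-target member. Cdkn2a had the largest of these differences, 0.61 ± 0.064 on the log2 scale (adjusted p = 0.000105). It fell in WT-labelled and rose in KO-labelled cells, in 3 of 3 libraries of each, and the interaction was called in all 19 alternatives run, at 0.57 to 0.66. Gadd45a differed by 0.31 ± 0.048 (adjusted p = 0.00288), called in all 18 alternatives run. Btg2 differed by 0.24 ± 0.062 (adjusted p = 0.0483), a call that held in 5 of 19 alternatives. It was lost without any 1 of 10 libraries, all but ERT2 KO replicate 3 and Cre-ERT2 KO replicate 3 (0.20 to 0.29 over the 12), and its ERT2 KO and Cre-ERT2 KO libraries overlapped. Lyz2, a myeloid marker, also differed in this term (0.24 ± 0.049, adjusted p = 0.0145), and its part in these results was not tested.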

How the results depend on the processing

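Of 890 recomputed log2 differences of the members, 835 kept their direction and their side of the threshold, 25 lost a call, 20 gained one and 10 changed sign. The pathway genes named kept 1016 of 1104. Part of these values could not change direction. Leaving out a library outside the contrast, eBayes without trend, the replicate block, the 6 libraries compared and the stricter threshold return the same difference. In these only the side of the threshold could move, so the counts do not measure how stable the directions are. Without 1 library, the members called ranged from 2 to 4 (β-catenin, WT-labelled), 1 to 3 (β-catenin, KO-labelled), 8 to 9 (KO label, ERT2), 9 in each case (KO label, Cre-ERT2) and 0 to 1 (interaction). The pathway genes called ranged from 6 to 12, 7 to 14, 43 to 50, 42 to 48 and 2 to 4, and the genes of the table from 1026 to 1659, 1050 to 1458, 6609 to 7314, 6690 to 7157 and 383 to 595. At an adjusted p under 0.01 the β-catenin contrast called 4 pathway genes and 787 genes in WT-labelled and 1 member, 7 pathway genes and 790 genes in KO-labelled cells, and the interaction 240 genes. With only the 6 libraries compared, the KO-labelled β-catenin contrast called 7 pathway genes and 934 genes. Over genes with a mean above 8, the interaction called 1 member, Trp53inp1, and 337 genes, with fewer genes tested.

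Sign changes were all of values near 0 or not called. Ddb2 between labels with Cre-ERT2 was the exception, turning from a called 0.09 to -0.019 after quantile normalization. Bbc3 in the same contrast turned to -0.083 with quantile normalization and to -0.020 with median centring, and ranged from -0.0044 to 0.033 with 1 library left out. With 1 library left out, the β-catenin difference of Trp53inp1 in KO-labelled cells ranged from -0.014 (without Cre-ERT2 KO replicate 3) to 0.10, and that of Mdm4 in WT-labelled cells from -0.0074 to 0.068. The interaction ranged from -0.034 to 0.058 for Ccng1, from -0.055 to 0.0070 for Cdkn1a and from -0.036 to 0.034 for Aen, which was 33.8 units on unlogged values. The causes were not tested.

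The replicate numbers were not treated as pairs, since the deviations of same-numbered libraries from their group means correlated at -0.10 to 0.24 over genes, and the own number correlated best in 16 of 36 cases. With the number as a replicate block, the members called were 3, 4, 8, 9 and 0, and the pathway genes called 11, 12, 46, 46 and 2, in the order above. The β-catenin call of Phlda3 in WT-labelled cells was lost (adjusted p = 0.0522) and Aen was called in WT-labelled (0.0429) and KO-labelled cells (0.0365). Among the pathway genes named, Bax between labels with ERT2 (0.051) and Btg2 in the interaction (0.0824) lost their calls. It changed no other call of a gene named and moved no count by over 1.5 times.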
